A study of Canis lupus familiaris with 21 samples.

Results

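The lines of MDCK-II cells that overexpress Zeb1 and Snail1 were compared spot by spot, through the 3 columns of each line in the deposited value table of log ratios. These 6 columns were chosen by their sample titles, out of 21 columns for 7 lines. Of the 42034 spots on each array, 30183 were kept because Cy5 or Cy3 signal was flagged as well above background on 3 or more of the 21 scanner files. MDCK-II is an epithelial cell line from dog kidney, used as a model of polarised epithelium. Each array set RNA of 1 line, labelled with Cy5, against RNA of control MDCK-II cells carrying the pLKO empty vector, labelled with Cy3. The Zeb1 group was MDCK-II over-expressing Zeb1 and the Snail1 group was MDCK-II over-expressing Snail1, with 3 arrays each and the empty-vector control on every array. A value above 0 on the log2(Cy5/Cy3) scale means more RNA in the line than in the control.

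In the epithelial to mesenchymal transition, epithelial cells take apart their junctions, lose apical-basal polarity and become motile. Zeb1 is a zinc-finger and homeodomain transcription factor, and Snail1 is a zinc-finger factor of another family. Both are known to bind E-box sequences and to repress the E-cadherin gene, and Zeb1 and the miR-200 family are known to repress each other. The series title names both factors together with the regulation of miR-200f. The arrays as read here give no value for a named miRNA or gene, so the comparison shows only where the 2 lines differ.

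What the groups can stand for is limited by the labels. The labels call the arrays biological replicates, and say that clones were isolated with rings after selection in G418 or puromycin. They do not state if a line's 3 arrays stem from different clones or cultures. The p-values therefore cover the spread among these arrays alone, which may be technical. The extraction text speaks of tumours and of a pooled Cy3 sample, against the source label, which names control cells. The name control follows the source label. A test of a line's mean against 0 takes no account of spread in the control itself, while the control cancels in the difference between lines. RNA of whole cultures was measured, so fewer cells with a transcript and less of it per cell cannot be told apart.

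File and column labels conflict. Within 1e-04 on the log10 scale, 15 of the 21 columns equalled the ratios of a scanner file at 97.7% to 97.8% of kept spots, and 0 of these files were recorded for the sample that the column names. The first Zeb1 column equalled the file recorded for the first Zeb2 array, and the first Zeb2 column equalled the file recorded for the first Zeb1 array. The second and the third Zeb1 columns equalled the files recorded for the third and the second Zeb1 array. At 9 of the 15 columns the file was recorded for another line. The E47 columns equalled files recorded for Twist1 and Snail2. The first Snail2 column and the first and second Twist1 columns equalled files recorded for E47, and the third Twist1 column equalled a Twist2 file. Lines are named by column label throughout. The 3 Snail1 columns equalled no file, with a highest correlation across spots of 0.722, 0.728 and 0.675. Their scale and direction were taken to be those of the other columns, and their slides and background flags are unknown. The Zeb1 columns lie on 1 slide, which also holds the first Zeb2 column, so slide and line cannot be told apart in this comparison. The grid design number, which supplies probe IDs and transcript names, differed from the slide design number in 21 of 21 files. Spots are therefore named by probe ID alone, and neither the overexpressed genes nor epithelial and mesenchymal markers could be checked.

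Columns of 1 line resembled each other more than columns of different lines. Across the kept spots, which are not independent replicates, Pearson's r was 0.67 to 0.73 between Zeb1 columns, 0.80 to 0.84 between Snail1 columns and 0.41 to 0.59 between a Zeb1 and a Snail1 column. By standard deviation the ratios were wider in Snail1, while the median absolute line mean over kept spots was larger in Zeb1, at 0.389 against 0.295. The standard deviation over spots of the line mean was 0.870 in Snail1 and 0.741 in Zeb1, with a median standard error of a line mean of 0.248 (n = 3 columns per line). The difference between the lines had a standard deviation over spots of 0.709 and a median standard error of 0.350. A ratio of exactly 0 stood at 3.70% to 5.83% of spots in the Zeb1 columns and at 2.61% to 2.70% in the Snail1 columns. Precision is limited by the 3 arrays per line.

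Against control, a similar number of spots was called in each line. A spot was called where limma gave a Benjamini-Hochberg adjusted p under 0.05 and an absolute log2 value of at least 1. In Zeb1, 3094 of 30183 spots were called (10.3%), of which 1556 rose (5.16%) and 1538 fell (5.1%). In Snail1, 3291 were called (10.9%), of which 1896 rose (6.28%) and 1395 fell (4.62%). At the higher limit of 2 on the log2 scale, 591 spots remained in Zeb1 and 1073 in Snail1. Of the spots called in both lines, 1514 had the same sign and 47 had opposite signs.

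The difference between the lines was called at 1081 spots (3.58% of 30183), 515 higher in Zeb1 (1.71%) and 566 lower (1.88%). An absolute difference of at least 2 was called at 496 spots and of at least 3 at 243. An unadjusted p under 0.05 was found at 4538 spots, and an adjusted p under 0.05 at any size at 1298. The 3 Zeb1 values did not overlap the 3 Snail1 values at 8864 spots (29.4%), most of which were not called. Leaving out 1 column gave 731 to 870 called spots, array weights gave 1773 and scaling the columns to a common spread gave 4974. Scaling also widened the values, so that the limit of 1 there no longer stands for 2-fold in the deposited ratios. With the scanner files under their recorded samples in place of the columns, limma called 0 spots after normexp and loess (1529 with an unadjusted p under 0.05) and 1 spot from the deposited log ratios (5786 with an unadjusted p under 0.05). Every class below therefore rests on the column labels.

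The 1081 spots fell into 4 classes. At 47, both lines were called against control with opposite signs. At 750, a single line was called against control, and the difference was called too. At 143, both lines were called with the same sign but in unequal size. At the other 141 spots the difference was called while neither line was, 93 higher and 48 lower in Zeb1. The single line was Snail1 at 571 of the 750 spots and Zeb1 at 179. Among the 143 unequal spots, the change was larger in Snail1 at 127 and larger in Zeb1 at 16. The 3 tests share the Zeb1 and Snail1 columns, so these classes describe 1 set of 6 columns.

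**Figure D1:**
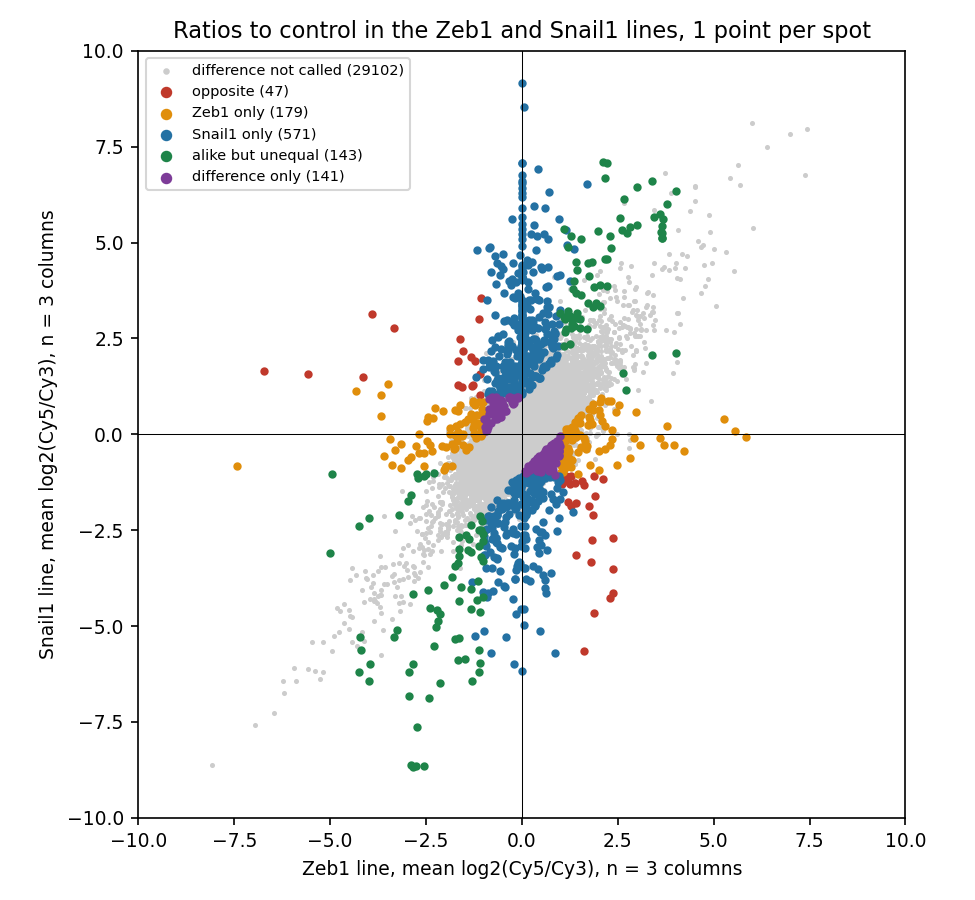
Each point is 1 of the 30183 kept spots, with the mean log2(Cy5/Cy3) of the Zeb1 columns on the horizontal axis and that of the Snail1 columns on the vertical axis (n = 3 columns each). Colours mark the 47 opposite, 179 Zeb1-only, 571 Snail1-only, 143 unequal and 141 difference-only spots. Grey marks the 29102 spots whose difference was not called, and at 25218 of them neither line was called.

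The 47 spots that changed oppositely comprised 29 that rose in Zeb1 and fell in Snail1, and 18 that fell in Zeb1 and rose in Snail1. Both sides contributed, with a median absolute log2 change of 1.55 in Zeb1 and 1.65 in Snail1. The median absolute difference was 3.27, with a range of 2.04 to 8.38. The smaller of the 2 changes was in Zeb1 at 27 of the 47 spots. The Zeb1 and Snail1 values did not overlap at any of the 47, which the definition of the class nearly fixes. Only 17 of the 47 were well above background in both channels on at least 18 of the 21 files, against 59.6% of all kept spots, and spots that meet this are called brighter here. On the files that equal the Zeb1 columns, Cy5 was above background on 0 of 3 at 9 of the 47, all among the 18 that fell in Zeb1. Cy3, the control, was above background on 0 of these 3 files at 9 of the 47, 8 of them among the 29 that rose in Zeb1. A change in Zeb1 with a single channel above background has a direction, and its size is only a bound. At A_11_P00000378, named after its values were seen, neither channel was above background on these files.

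Among brighter spots that rose in Zeb1 and fell in Snail1, the largest difference was at A_11_P0000014662. Its log2 ratios were 1.97, 1.11 and 1.75 in the Zeb1 columns and -6.75, -4.04 and -6.16 in the Snail1 columns. The second Snail1 column was the least low, and every Snail1 value lay far below every Zeb1 value. The difference was 7.26 ± 0.65 (SE, n = 3 columns per line, limma adjusted p = 1.46e-06). No fold is given for spots that fell in Snail1, because the Snail1 background flags are unknown and the size of such a fall may be a bound. A_11_P0000030918 had Zeb1 values of 1.83, 1.96 and 1.83 and Snail1 values of -4.63, -4.61 and -4.74. Its columns were among the tightest of the class, with a standard deviation of 0.07 in each line. The difference was 6.53 ± 0.39 (adjusted p = 7.24e-09).

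A_11_P000008334 had Zeb1 values of 1.92, 1.74 and 1.74 and Snail1 values of -3.34, -3.20 and -3.44, a difference of 5.13 ± 0.65 (adjusted p = 7.37e-05). Its SE is larger than its columns' own spread because the fit shares the variance with the other lines, where Zeb2 had a standard deviation of 2.07. A_11_P0000024849 had 2.15, 1.67 and 1.70 in Zeb1 and -2.41, -1.99 and -1.93 in Snail1, a difference of 3.95 ± 0.30 (adjusted p = 1.47e-07). Here the sizes of the rise and the fall were close. A_11_P0000014223 had 1.78, 2.06 and 1.80 in Zeb1 and -0.97, -1.11 and -1.21 in Snail1, a difference of 2.98 ± 0.37 (adjusted p = 5.81e-05). The Snail1 fall at this spot stood just past the limit of 1, with a mean of -1.10.

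In the other orientation, the largest difference among brighter spots was at A_11_P0000041795. Its values were -3.75, -2.87 and -3.41 in Zeb1 and 2.86, 2.85 and 2.62 in Snail1. The difference was -6.12 ± 1.01 (limma adjusted p = 0.000975), and no fold is given because Cy5 was not well above background on any of the 3 matching Zeb1 files. A_11_P000009849 was above background in both channels on all 21 files, with -1.51, -1.32 and -0.52 in Zeb1 and 3.28, 2.74 and 3.03 in Snail1. The third Zeb1 value was nearest to 0. Its difference was -4.14 ± 0.31 (adjusted p = 1.36e-07), or 17.6-fold.

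A_11_P0000015439 had -0.97, -1.55 and -1.19 in Zeb1 and 1.58, 2.12 and 2.05 in Snail1, a difference of -3.15 ± 0.40 (adjusted p = 6.81e-05). This spot shares its transcript name with another, and such spots can carry exchanged values in the columns. A_11_P0000030239 had -1.34, -1.66 and -1.96 in Zeb1 and 1.14, 1.23 and 1.45 in Snail1, a difference of -2.93 ± 0.29 (adjusted p = 4.06e-06), with Cy5 above background on 1 of the 3 matching Zeb1 files. A_11_P0000018962 had -1.18, -1.44 and -1.33 in Zeb1 and 1.098, 1.00 and 1.67 in Snail1. Its difference of -2.57 ± 0.58 had an adjusted p of 0.0146, the highest of these 10 spots. The call was lost without the second or the third Zeb1 column or the third Snail1 column, with adjusted p of 0.0579, 0.0502 and 0.0801.

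**Figure D2:**
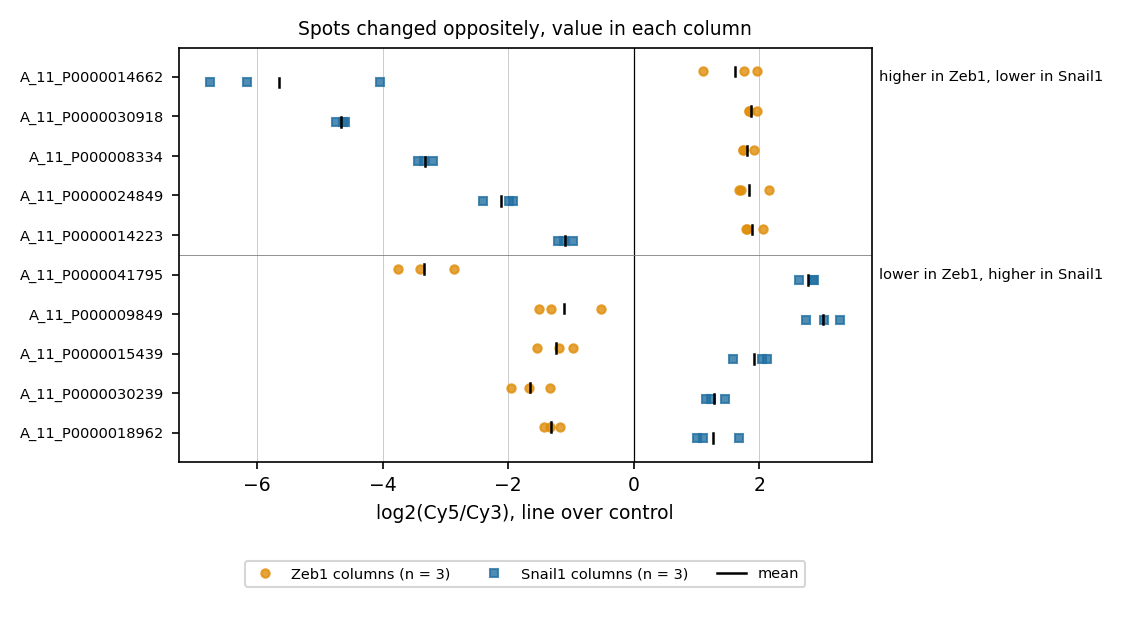
The 10 brighter spots that changed oppositely, 5 in each orientation, with log2(Cy5/Cy3) of every column on the horizontal axis (circles for Zeb1, squares for Snail1, n = 3 columns each, black bars for the means). Zeb1 and Snail1 columns lie on opposite sides of 0 at all 10 spots, which the definition of the class nearly fixes. The largest difference of means, 7.26, is at A_11_P0000014662.

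The spots that follow lie outside the rule for named spots and were chosen after their values were seen. A_11_P0000020113 had the largest difference of the class, -8.38. Its values were -6.82, -6.89 and -6.49 in Zeb1 and 1.48, 1.76 and 1.70 in Snail1, and A_11_P0000011717 had -5.48, -6.02 and -5.22 against 1.36, 1.79 and 1.59. At A_11_P0000020172 the values were -4.50, -3.97 and -3.93 in Zeb1 and 1.39, 0.98 and 2.11 in Snail1. Cy5 was above background on 0 of the 3 matching Zeb1 files at these 3 spots, so the sizes in Zeb1 are bounds. All 3 were also low in lines other than Zeb1. At A_11_P0000020113 the mean log2 ratio was -6.80 in Zeb2, -6.91 in Snail2, -6.61 in Twist2 and -4.96 in Twist1, beside -0.73 in E47 and 1.65 in Snail1. At A_11_P0000011717 it was -5.85, -5.66, -5.11 and -3.71 in the same 4 lines, with 0.62 in E47 and 1.58 in Snail1. At A_11_P0000020172 it was -4.19, -4.32, -3.34 and -2.40, with -0.24 in E47. Snail1 was thus the line with the highest mean at these 3 spots, and Zeb1 stood beside Zeb2, Snail2 and Twist2.

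A pair of spots had nearly the same values in every line, also chosen after seeing them. A_11_P000007100 had 2.20, 2.66 and 2.28 in Zeb1 and -4.32, -4.61 and -3.53 in Snail1. A_11_P0000020257 had 2.01, 2.63 and 2.29 in Zeb1 and -4.53, -4.53 and -3.75 in Snail1. Neither shares a transcript name with another spot in the files. Their means in the other lines were 1.21 and 1.07 in Zeb2, 1.32 and 1.28 in E47, -5.98 and -6.11 in Snail2, -5.70 and -5.63 in Twist1, and -4.34 and -4.23 in Twist2. By the column labels, the means of Zeb1, Zeb2 and E47 were above control at both spots, and those of the Snail and Twist lines were below it. Column and file labels name different lines for some or all columns of Zeb1, Zeb2, E47, Snail2 and Twist1. No file equals the Snail1 columns. The Zeb2 standard deviations of 2.11 and 2.06 exceeded its means, so a rise in Zeb2 is not established.

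The values of the other lines at these spots are given as medians, with the Zeb1 and Snail1 values that define the class. Over the 29 spots that rose in Zeb1 and fell in Snail1, the median of the line means was 1.55 in Zeb1, 0.94 in Zeb2, 0.27 in E47, -0.38 in Twist2, -0.91 in Twist1, -1.76 in Snail2 and -1.62 in Snail1. Over the 18 in the other orientation it was -1.55 in Zeb1, -1.17 in Zeb2, -0.85 in Twist2, -0.19 in Twist1, 0.78 in Snail2, 0.80 in E47 and 1.78 in Snail1. In both orientations the Zeb2 median lay on the Zeb1 side of 0 and the Snail2 median on the Snail1 side. Single spots departed from these medians. A_11_P000008144 rose in Zeb1 with a mean of 1.62 and fell in Snail1 with -1.33, beside means of 1.90 in Zeb2, 2.03 in Twist1, 2.95 in Snail2, 3.54 in Twist2 and 3.94 in E47. Its Cy3 was above background on 4 of 21 files and on 0 of the 3 matching Zeb1 files, so these sizes are bounds or rest on a control near background.

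**Figure D3:**
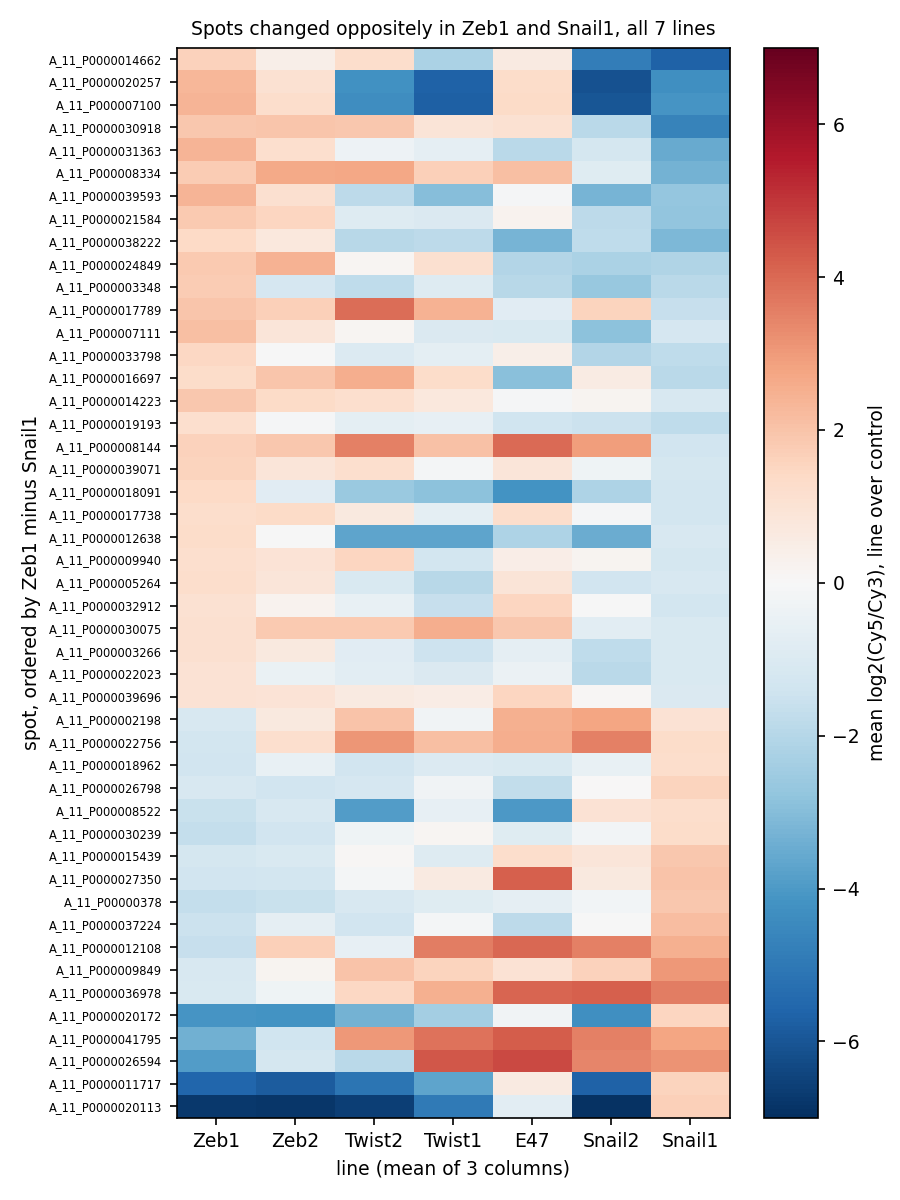
Heat map of the 47 spots that changed oppositely (rows, ordered by Zeb1 minus Snail1) in all 7 lines (columns), coloured by the mean log2(Cy5/Cy3) of 3 columns per line, red above and blue below control. The Zeb1 and Snail1 columns are opposite in colour by definition, and the 3 spots with the lowest Zeb1 means (-6.73, -5.58 and -4.13) are also blue in Zeb2, Twist2, Twist1 and Snail2.

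The limit of 1 on the log2 scale sets the size of this class. With any size allowed, 122 spots had opposite signs with an adjusted p under 0.05 in both lines. Just inside the limit, A_11_P0000039696 had means of 1.03 in Zeb1 and -1.01 in Snail1, and A_11_P0000022023 had 1.03 and -1.05. Just outside it, A_11_P0000030543 had 1.01 and -0.995, and A_11_P0000025201 had 0.99 and -1.68. The last of these counts as a Snail1-only spot.

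Of the 750 spots changed in a single line, Snail1 alone rose at 344 and fell at 227, and Zeb1 alone rose at 100 and fell at 79. Alone refers to the calls of Zeb1 and Snail1 against control, and other lines could change at these spots too. The calls in a single line without the test of the difference would be more even. There were 1730 spots called in Snail1 and not in Zeb1, of which 33.0% had a called difference, and 1533 called in Zeb1 and not in Snail1, of which 11.7% did. At the other 1159 and 1354 spots the difference missed the threshold, which does not show that the lines were alike there. Where Snail1 alone changed, its median absolute log2 value was 2.28 and that of Zeb1 was 0.31. Where Zeb1 alone changed, its median was 1.55 and that of Snail1 was 0.37. The other line was under 0.5 in absolute size at 383 of the 571 Snail1-only spots and at 119 of the 179 Zeb1-only spots. It had the opposite sign at 247 and 101 of them.

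Spots that rose in Snail1 alone were dim in the control. Their median Cy3 processed signal was 33.1, against 439 for all kept spots and 985 for those that fell in Snail1 alone. On the files that equal the Zeb1 columns, Cy5 was above background on 0 of 3 at 163 of the 344 spots, and Cy3 at 162. Over all 30183 kept spots these counts were 3573 and 5059. Where a channel was not above background, a Zeb1 ratio near 0 does not show unchanged RNA. An exact 0 stood in at least 1 of the 6 columns at 158 of the 344 spots, and at 2287 of all kept spots. At 75 of these 344 spots all 3 Zeb1 columns held a ratio of exactly 0, and 0 of the other spots with a called difference did. When spots were split by control signal into 5 bands of equal size, Snail1-only spots made up 3.54% of the dimmest band and 1.37% to 1.54% of the others. Leaving out every spot with an exact 0 in one of the 6 columns gave 574 single-line spots, 405 in Snail1 and 169 in Zeb1. The part of the exact zeros in the Snail1 excess was measured by this count alone.

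Among brighter spots that rose in Zeb1 alone, the largest differences between the lines were at A_11_P0000027092, A_11_P000005066 and A_11_P000009033. A_11_P0000027092 had 3.87, 3.60 and 3.67 in Zeb1 and -0.39, -0.12 and -0.37 in Snail1, a difference of 4.01 ± 0.80 (limma adjusted p = 0.0055). A_11_P000005066 had 2.78, 2.89 and 2.80 in Zeb1 and -0.62, -0.56 and -0.64 in Snail1, a difference of 3.43 ± 0.60 (adjusted p = 0.00174). A_11_P000009033 had 3.18, 2.60 and 3.01 in Zeb1 and -0.07, -0.25 and 0.03 in Snail1, a difference of 3.03 ± 0.56 (adjusted p = 0.00311). The Zeb1 values lay close together and far above control at these spots, and the Snail1 values lay near control. Zeb1 was not the highest line at any of them, since means of 4.76 in Twist2, 3.28 in E47 and 5.18 in Twist2 stood above it in this order.

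Among brighter spots, falls in Zeb1 alone were led, by the size of the difference, by A_11_P0000032751, with -3.52, -3.71 and -3.80 in Zeb1 and 0.54, 0.52 and 0.35 in Snail1. Its difference was -4.15 ± 0.76 (limma adjusted p = 0.00268), with no fold because Cy5 was not well above background on any of the 3 matching Zeb1 files. A_11_P0000034125 had -3.23, -3.60 and -3.98 in Zeb1 and -0.72, -0.37 and -0.63 in Snail1, a difference of -3.03 ± 0.45 (adjusted p = 0.000368). Both lines were below control at this spot, Snail1 by less than the limit. A_11_P0000032247 had -1.88, -2.41 and -1.89 in Zeb1 and 0.50, 0.46 and 0.84 in Snail1, a difference of -2.66 ± 0.28 (adjusted p = 9.97e-06). It was above background in both channels on all 21 files. Its Snail1 rise had a limma adjusted p of 0.03998 against control and missed only the limit of 1.

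Among brighter spots, rises in Snail1 alone were led, by the size of the difference, by A_11_P0000035259, with 0.22, -0.86 and 0.15 in Zeb1 and 4.06, 3.97 and 3.86 in Snail1. Its difference was -4.13 ± 0.68 (limma adjusted p = 0.00102), with Cy5 and Cy3 each above background on 2 of the 3 matching Zeb1 files. The second Zeb1 column was the low one there, as it was at A_11_P0000026590, where the Zeb1 values were 0.70, -0.74 and 0.72. The Snail1 values at A_11_P0000026590 were 3.38, 3.75 and 3.33, and the difference was -3.26 ± 0.57 (adjusted p = 0.00169). A_11_P0000030030 had -0.04, -0.26 and -0.02 in Zeb1 and 3.91, 3.77 and 3.39 in Snail1, a difference of -3.80 ± 0.35 (adjusted p = 2.39e-06). At this spot Snail2 was near control too, with a mean of 0.40 ± 0.30 (SD, n = 3), while E47, Twist1 and Twist2 had means of 2.40, 2.31 and 3.18. At A_11_P0000035259 the means were 3.81 in Snail2, 3.83 in Twist1, 3.54 in Twist2 and 2.84 in E47, beside 3.96 in Snail1. At A_11_P0000026590 they were 4.50, 3.11, 3.31 and 5.12 in the same lines, beside 3.49 in Snail1. Over all 344 spots that rose in Snail1 alone, the median line mean was 2.40 in Snail1 and 2.31 in Snail2. It was 1.48 in E47, 1.28 in Twist2, 1.21 in Twist1, 0.45 in Zeb2 and 0.0 in Zeb1.

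Among brighter spots, falls in Snail1 alone were led, by the size of the difference, by A_11_P000009246, with -1.16, -0.63 and -0.63 in Zeb1 and -5.94, -5.38 and -5.81 in Snail1. Its difference was 4.91 ± 0.35 (limma adjusted p = 8.39e-08). A_11_P0000017127 had 0.89, 0.88 and 0.52 in Zeb1 and -3.35, -3.53 and -3.99 in Snail1, a difference of 4.39 ± 0.25 (adjusted p = 3.01e-09). A_11_P0000014585 had 0.67, 0.52 and 0.49 in Zeb1 and -3.58, -3.46 and -3.96 in Snail1, a difference of 4.22 ± 0.20 (adjusted p = 3.75e-10). In Zeb1 these 3 spots had limma adjusted p of 0.0259, 0.00381 and 0.009 against control, and missed only the limit of 1. At the last 2 spots Zeb1 was above control in every column, short of the limit, and Snail1 had the lowest mean of the 7 lines. The Snail2 means were -0.25 ± 0.05 and -0.24 ± 0.09 (SD, n = 3), beside Snail1 means of -3.62 ± 0.33 and -3.66 ± 0.26.

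At 1514 spots both lines were called with the same sign, and the difference was called at 143 of them, or 9.45%. The other 1371, of which 778 rose and 593 fell in both, had no called difference. Where the sizes differed, Snail1 had the larger change in most cases, with 65 spots raised more and 62 lowered more in Snail1, against 4 and 12 in Zeb1. The median absolute log2 value over the 143 spots was 4.12 in Snail1 and 1.94 in Zeb1. This count depended on single columns. It was 89 without the second Zeb1 column, 95 without the third Zeb1 column and 94 without the second Snail1 column.

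Among brighter spots, A_11_P000002203 had 1.20, 1.16 and 1.46 in Zeb1 and 5.27, 5.37 and 4.87 in Snail1, a difference of -3.90 ± 0.61 (limma adjusted p = 0.000598). A_11_P0000015046 had 1.42, 1.39 and 1.42 in Zeb1 and 4.51, 4.35 and 4.65 in Snail1, a difference of -3.09 ± 0.40 (adjusted p = 9.75e-05). Both rose in each line, 14.9-fold and 8.53-fold more in Snail1. At A_11_P000002203 the means of 5.51 in Twist1 and 5.78 in Twist2 stood above the 5.17 of Snail1. At A_11_P0000015046 Snail1 had the highest mean of the 7 lines, 4.50. Among spots lowered more in Snail1, A_11_P0000020997 led with -2.63, -3.08 and -2.77 in Zeb1 and -8.30, -8.57 and -9.17 in Snail1. Its difference was 5.85 ± 0.67 (adjusted p = 2.53e-05), and the spot was saturated on 3 files. A_11_P0000016641 had -3.40, -2.61 and -2.67 in Zeb1 and -8.18, -8.65 and -9.07 in Snail1, a difference of 5.74 ± 1.30 (adjusted p = 0.014). Both spots were bright in the control, and both fell in Zeb1 as well. The means of A_11_P0000020997 were -7.99 in Snail2, -7.75 in Twist1, -6.37 in Twist2, -3.51 in E47 and -3.02 in Zeb2, beside -8.68 in Snail1. Those of A_11_P0000016641 were -9.19, -6.94, -7.87, -5.09 and -3.29 in the same order, beside -8.63 in Snail1. Zeb1 had the least negative mean of the 7 lines at both spots. The call at A_11_P0000016641 was lost without the second or the third Zeb1 column or the second or the third Snail1 column, with adjusted p of 0.0563, 0.0528, 0.0505 and 0.0656.

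Larger changes in Zeb1 were few and smaller in size. A_11_P0000032856, the only brighter spot raised more in Zeb1, had 3.76, 3.36 and 3.02 in Zeb1 and 2.19, 2.08 and 1.95 in Snail1. Its difference was 1.31 ± 0.31 (limma adjusted p = 0.0193), or 2.48-fold. The call was lost without the first or the second Zeb1 column, or the second or the third Snail1 column, with adjusted p of 0.102, 0.0594, 0.0626 and 0.0853. A_11_P000009590, the only brighter spot lowered more in Zeb1, had -2.92, -2.26 and -2.33 in Zeb1 and -0.87, -1.002 and -1.25 in Snail1. Its difference was -1.46 ± 0.28 (adjusted p = 0.00437).

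**Figure D4:**
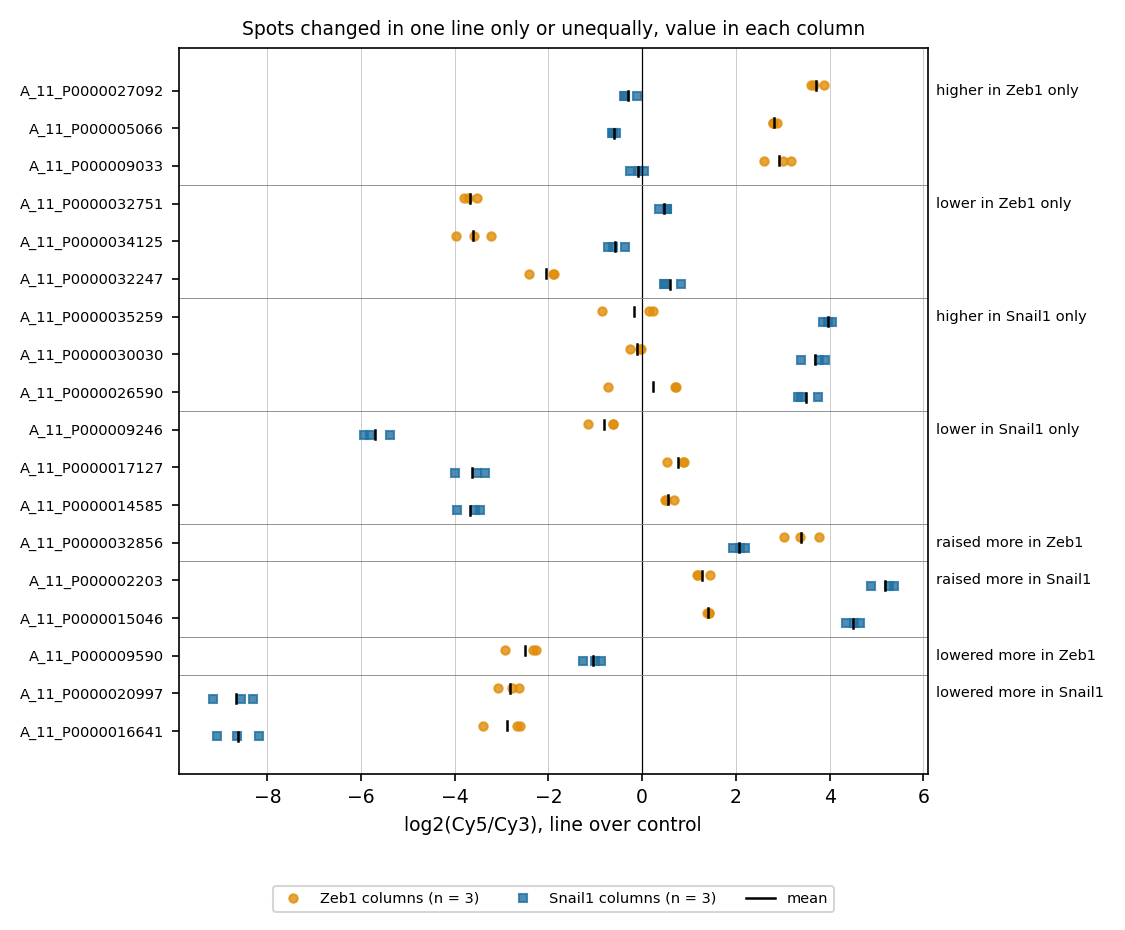
The 18 brighter spots changed in 1 line only or alike but unequally, with log2(Cy5/Cy3) of every column on the horizontal axis (circles for Zeb1, squares for Snail1, n = 3 columns each, black bars for the means). The lines do not overlap at any of the 18 spots, which the choice of the largest called differences nearly fixes (29.4% of all kept spots do not overlap). The 2 spots lowered more in Snail1 reach -9.17 and -9.07 there.

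Zeb2 and Snail2, the nearest relatives of Zeb1 and Snail1, were set against each other through the columns that carry their labels. These labels conflict with the file labels too. A Zeb2 column equalled a file recorded for Zeb1, and a Zeb1 column equalled a file recorded for Zeb2. A Snail2 column equalled a file recorded for E47, and the other Zeb2 columns equalled no file. By the file labels, the Zeb1 and Zeb2 groups would exchange an array, and the Snail2 group would hold an E47 array. Both contrasts come from 1 fit over all 21 columns with a shared variance, so the Zeb2 and Snail2 columns entered the errors behind the 1081 calls, though not their differences. Their columns differed at many more spots, with 6588 called (21.8%), 3482 higher in Zeb2 (11.5%) and 3106 lower (10.3%). Of the 515 spots higher in Zeb1 than in Snail1, 252 (48.9%) were called higher in Zeb2 than in Snail2 and 15 lower. Of the 566 spots lower in Zeb1, 298 (52.7%) were called lower in Zeb2 and 11 higher. As shares of the Zeb2 lists, these were 7.24% of the spots higher and 9.59% of the spots lower in Zeb2. The median Zeb2 minus Snail2 difference was 1.05 over the 515 spots, -1.24 over the 566 spots and -0.01 over all kept spots. Leaving out 1 Zeb2 or Snail2 column gave shares of 41.9% to 55.7% and 45.8% to 53.4%. The first Zeb2 column equals a file of the slide that holds the Zeb1 columns, and without it the shares were 55.7% and 53.4%.

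The classes were then read in the Zeb2 and Snail2 columns. Of the 29 spots that rose in Zeb1 and fell in Snail1, 21 were higher in Zeb2 than in Snail2 and 0 were lower. Of the 18 in the other orientation, 12 were lower in Zeb2 and 0 were higher. At A_11_P0000014662 and A_11_P0000024849 the Zeb2 minus Snail2 difference was 5.25 ± 0.65 and 4.65 ± 0.30 (limma adjusted p = 2.77e-05 and 2.1e-08). At A_11_P0000018962 it was 0.04 ± 0.58 (adjusted p = 0.975), where both Zeb2 and Snail2 had means below 0. Of the Snail1-only spots, 194 of the 344 that rose were lower in Zeb2 than in Snail2 and 3 higher. Of the 227 that fell, 125 were higher and 7 lower. Of the Zeb1-only spots, 44 of the 100 that rose were higher in Zeb2 and 2 lower, and 44 of the 79 that fell were lower and 1 higher. Among unequal spots, 27 of the 65 raised more in Snail1 were lower in Zeb2 and 3 higher. Of the 62 lowered more in Snail1, 39 were higher and 1 lower. Of the 12 lowered more in Zeb1, 7 were lower in Zeb2 and 1 higher, and 0 of the 4 raised more in Zeb1 were called. Over all kept spots, 11.5% were higher and 10.3% lower in Zeb2. No test of the difference between these shares was made.

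**Figure D5:**
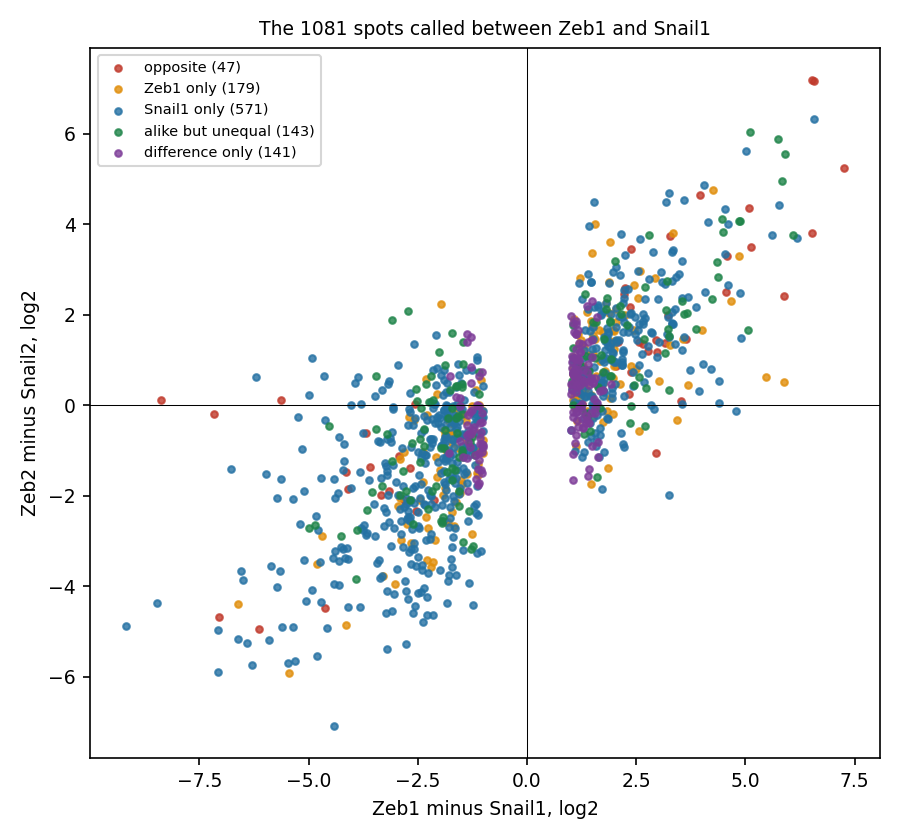
Each point is 1 of the 1081 spots called between Zeb1 and Snail1, with the Zeb1 minus Snail1 difference on the horizontal axis and the Zeb2 minus Snail2 difference on the vertical axis, both in log2 units from 3 columns per line. The horizontal gap around 0 comes from the limit of 1, and the medians on the vertical axis are 1.05 for the 515 spots to the right and -1.24 for the 566 to the left.

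Called spots were spread over the array. When the array was split into 4 bands along its rows, 3.39% to 3.67% of kept spots were called between Zeb1 and Snail1, and 3.27% to 3.91% in 4 bands along its columns. By control signal, 5.04% of the dimmest of these 5 bands was called, against 2.97% to 3.43% in the other 4.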

How the data were processed

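RNA of MDCK-II lines was measured on 21 two-colour arrays, 3 for each of 7 lines. The deposited value table holds log10 ratios. In 15 of its 21 columns these equal log10(Cy5/Cy3) of the processed intensities in a scanner file, in which, per the file headers, Agilent Feature Extraction 10.7.1.1 (10.0 per the submitters' processing notes) had subtracted background and normalised the dyes. Scale and direction were taken to be the same in the 6 columns that equal no file, which include Snail1. Their centring and other processing are not given in the sources used here. The deposited intensity columns gave the control signal of a spot and, as median signals, an alternative source of ratios.

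The log10 ratios the authors deposited were multiplied by log2(10). Columns were assigned by sample title. Spots with Cy5 or Cy3 flagged well above background on 3 or more files were kept. In the first Zeb1 column, 896 of all 42034 spots did not equal the matching file, and all 896 hold values exchanged between spots of 1 transcript name. One limma 3.58.1 fit (R 4.3.3, lmFit, contrasts.fit, eBayes) over all 21 columns gave 7 line means with a shared variance. P-values were Benjamini-Hochberg adjusted over 30183 spots, and a call needed an adjusted p under 0.05 and an absolute log2 value of at least 1. The classes of spots follow from these calls with no further test. The code for the fit and classes was run on simulated ratios with independent noise and planted changes, which checks the code and not the deposited columns.

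Named spots were the largest Zeb1 minus Snail1 differences among spots above background in both channels on at least 18 files: 5 in each orientation of the opposite class, 3 in each direction of each line for single-line changes, and 2 in each kind of unequal change, or all if fewer. The comparison, its classes and these rules were chosen with earlier results of these data known. The replicate numbers of the titles were checked for pairing. Deviations of same-numbered columns correlated with r = -0.25, -0.12 and 0.07, so the columns were not treated as paired.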

Additional observations from a re-analysis of the deposited data

Results flagged for a closer look

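The response to the overexpressed factor, taken against the same control, differed between the Zeb1 and Snail1 columns by limma's test of the difference itself (adjusted p under 0.05 and an absolute log2 difference of at least 1) in 3 ways. The lines changed in opposite directions at 47 spots, which also rest on the calls of each line against control. A single line was called against control at 750 spots, and both lines changed alike but in unequal size at 143. At the 750 spots the other line missed the call, and its absolute log2 value was under 0.5 at 502.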

How the results depend on the processing

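The 6 counts were recomputed under each alternative, in the order of the difference between lines (1081), Zeb1 against control (3094), Snail1 against control (3291), opposite (47), single-line (750) and unequal spots (143). Scanner files under their recorded samples gave 0, 45, 631, 0, 0 and 0 after normexp and loess by limma (1529 spots differed at an unadjusted p under 0.05), and 1, 1036, 7070, 1, 1 and 0 from the deposited log ratios (5786 did). Both sources hold, in part, different arrays under the same sample, and the Snail1 columns match no file. Scaling between columns gave 4974, 8477, 8737, 224, 3136 and 883. A fold limit of 4 gave 496, 591, 1073, 6, 369 and 37. A fold limit of 1.5 gave 6100 for Zeb1, 5468 for Snail1, 103 opposite and 237 unequal spots. Array weights gave 1773 for the difference, 1148 single-line and 221 unequal spots. Requiring signal on all 21 files, which left 20102 spots, gave 2133 for Snail1 and 469 single-line spots, and moved the share of differences higher in Zeb1 from 47.6% to 59.97%. Why the counts moved under scaling and weights was not tested. Leaving out 1 column gave 731 to 870, 2629 to 3051, 2860 to 3271, 34 to 42, 545 to 641 and 89 to 99. With the replicate block the counts were 1028, 3077, 3272, 47, 726 and 132, and Zeb2 minus Snail2 had 6493 spots against 6588. The replicate block changed no call of a named spot. Zeb2 minus Snail2 had 5315 to 7489 with 1 column left out. No filter, the 6 columns alone, a trended robust variance, spots with a shared name left out and spots with an exact 0 left out kept each count within 1.5 times. The exact-zero and all Zeb2 minus Snail2 alternatives were chosen after seeing the data.

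The 28 named spots kept direction and call under scaling, array weights, the replicate block, the filters, the variance model and the 6 columns alone, and so did the 27 that share no transcript name when shared names were left out. Scaling multiplied their differences by 1.29 to 2.07, by over 1.5 times at 27 of 28, for example from 7.26 to 13.67 at A_11_P0000014662. Leaving out 1 column lost 3 of them, A_11_P0000018962, A_11_P0000016641 and A_11_P0000032856. Under the recorded samples none stayed called. After normexp and loess 10 reversed, with Zeb1 minus Snail1 at 0.0582 for A_11_P000009849, 0.0642 for A_11_P0000030030, 0.23 for A_11_P0000026590, -0.0501 for A_11_P000009246, -0.39 for A_11_P0000017127, -0.52 for A_11_P0000014585, 0.14 for A_11_P000002203, 0.27 for A_11_P0000015046, -2.88 for A_11_P0000020997 and -2.72 for A_11_P0000016641. From the deposited log ratios 7 reversed, with 1.09 for A_11_P000009849, -0.44 for A_11_P0000017127, -0.50 for A_11_P0000014585, 1.59 for A_11_P000002203, 3.41 for A_11_P0000015046, -2.72 for A_11_P0000020997 and -2.99 for A_11_P0000016641.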
